A study of Rattus norvegicus with 4 samples.

Results

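Urea cycle and amino acid breakdown genes were compared between liver RNA of lean and obese WNIN/Ob rats. A list of 53 genes was set by name, from the enzymes and carriers of these pathways, and 47 of them were measured among 14506 genes with a probe set of their own. Slc25a13, Glul, Gstz1, Afmid, Uroc1 and Amdhd1 had no probe set naming them alone in the platform annotation used here and were not analysed. WNIN/Ob is a rat strain that has a lean and an obese phenotype. All animals were untreated males aged 4 months on stock diet, and the alleles behind the phenotypes are not stated in the labels. RNA of 4 lean animals was combined into 1 pool and RNA of 4 obese animals into another. Each pool was hybridised to 2 Affymetrix Rat Gene ST arrays, called original and technical replicate.

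Each phenotype is thus 1 pool, the arrays repeat only the measurement, and no test across animals can be made. Levels are log2 RMA intensities, and a difference is the mean of the obese arrays minus that of the lean arrays. Beside each fold, brackets hold its lowest and highest value when 1 obese array is set against 1 lean array, in 4 pairings, which covers measurement error only. A gene was called by the 1.5-fold rule when its pools lay a factor of 1.5 apart, a log2 difference of 0.585 or more, with a gap of at least 0.25 between their nearest arrays. The 1.2-fold rule asked for a factor of 1.2, or 0.263 on the log2 scale, and arrays of the pools that did not overlap. Both rules asked that the higher pool reach the median level of all genes, 5.48, which all 47 members did.

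Amino acids that are burned give up their nitrogen. Aminotransferases gather it on glutamate, glutamate dehydrogenase and glutaminase release it as ammonia in mitochondria, and the urea cycle of the hepatocyte turns ammonia and the nitrogen of aspartate into urea. The carbon skeletons are broken down by separate routes for each amino acid, most of them far more active in liver than elsewhere, and end in glucose, ketone bodies or single carbon units carried by folate.

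The RNA was that of liver, and the lean pool also held transcripts of skeletal muscle. Albumin (Alb) read between 13.61 and 13.77 on the 4 arrays, and the 8 hepatocyte markers had a median difference of 0.10, with 1 called higher by the 1.2-fold rule and 0 lower. All 13 measured markers of skeletal muscle were called lower in the obese pool, with a median difference of -5.89, and their summed intensity was 29733 to 31026 on the lean arrays and 467 to 489 on the obese arrays. Myh1, a myosin heavy chain, read 11.47 and 11.61 in the lean pool and 5.01 and 4.12, below the median level of all genes, in the obese pool, so its difference has no firm size. Of the other cell types, stellate cell markers had a median of -0.65, and Des, which muscle also makes, read below that level in the obese pool too. The medians of macrophage, lymphocyte, endothelium, bile duct, adipocyte, kidney and pancreas markers lay between -0.33 and 0.23, the ends being those of adipocyte and pancreas. In both pools 4 of 5 adipocyte and 3 of 5 pancreas markers read below the median level of all genes. So did 3 of 5 lymphocyte, 3 of 3 bile duct and 3 of 3 kidney markers, so the medians of these 5 lists have no firm size. Among genes in the upper quartile of level the obese technical replicate array read lower than the obese original array by a median difference of -0.125, against 0.02 between the lean arrays. In bulk RNA, fewer cells of a type and less RNA per cell cannot be told apart. What part the muscle RNA or the obese arrays' offset had in the values that follow was not tested.

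Of the members 76.6% had a difference above 0, as did 66.9% of the genes in the upper quartile of level and 56.9% of all genes. By the 1.2-fold rule 17 of 47 were higher (36.2%) and 3 lower (6.38%), against 10.6% and 5.48% of all genes. The members are bright, and all 47 lay in the upper quartile of level, at 7.09 or more, where 22.6% of 3627 genes were called higher and 8.55% lower. By the 1.5-fold rule 2 members were higher (4.26%) and 1 lower (2.13%). The shares of all genes were 2.19% and 2.43%, and those of the upper quartile 4.47% and 3.03%, so the members' share of larger differences lay near the background. With each array centred on its median over all genes, 3 members were higher (Agxt, Gldc and Aass), against 2.66% of all genes. Fits that drop 1 array leave a single array in a pool, so only differences are given for them, beside the required 0.585. Aass stood at 0.62 without the lean original and 0.53 without the lean technical replicate array. It stood at 0.51 without the obese original and 0.64 without the obese technical replicate array. For Prodh2 these differences were 0.50, 0.52, 0.60 and 0.42. Arrays of the pools did not overlap for 39 members, 30 higher (63.8%) and 9 lower (19.1%), against 27.5% and 18.5% of all genes and 45.2% and 18.7% of the upper quartile.

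The median difference of the members was 0.17, with quartiles of 0.04 and 0.39. It was 0.03 over all genes and 0.09 over the upper quartile of level. The backgrounds depended on the obese arrays: with the original one omitted, the median in the upper quartile was 0.03 and 15.9% of its genes were called higher by the 1.2-fold rule, and with the technical replicate omitted these values were 0.15 and 33.6%. Of all genes 8.50% and 17.6% were then called higher, and of the members 17 and 19. Arrays of 1 pool differed little at these genes: the median absolute difference was 0.05 for the lean and 0.07 for the obese pool. Between pools it was 0.18 to 0.30 over the 4 pairs. Over the upper quartile of level the values were 0.07 for the lean and 0.14 for the obese pool, and 0.16 to 0.22 between pools. With differences counted from the hepatocyte markers, a scaling added after the data had been seen, 14 members were called higher and 5 lower, and the median was 0.07. Of the upper quartile of level 12.6% were then called higher and 14.1% lower, and of all genes 6.14% and 8.57%. Cyclic loess gave 15 and 4, against 13.9% and 13.0% of the upper quartile and 7.17% and 7.44% of all genes.

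**Figure D1:**
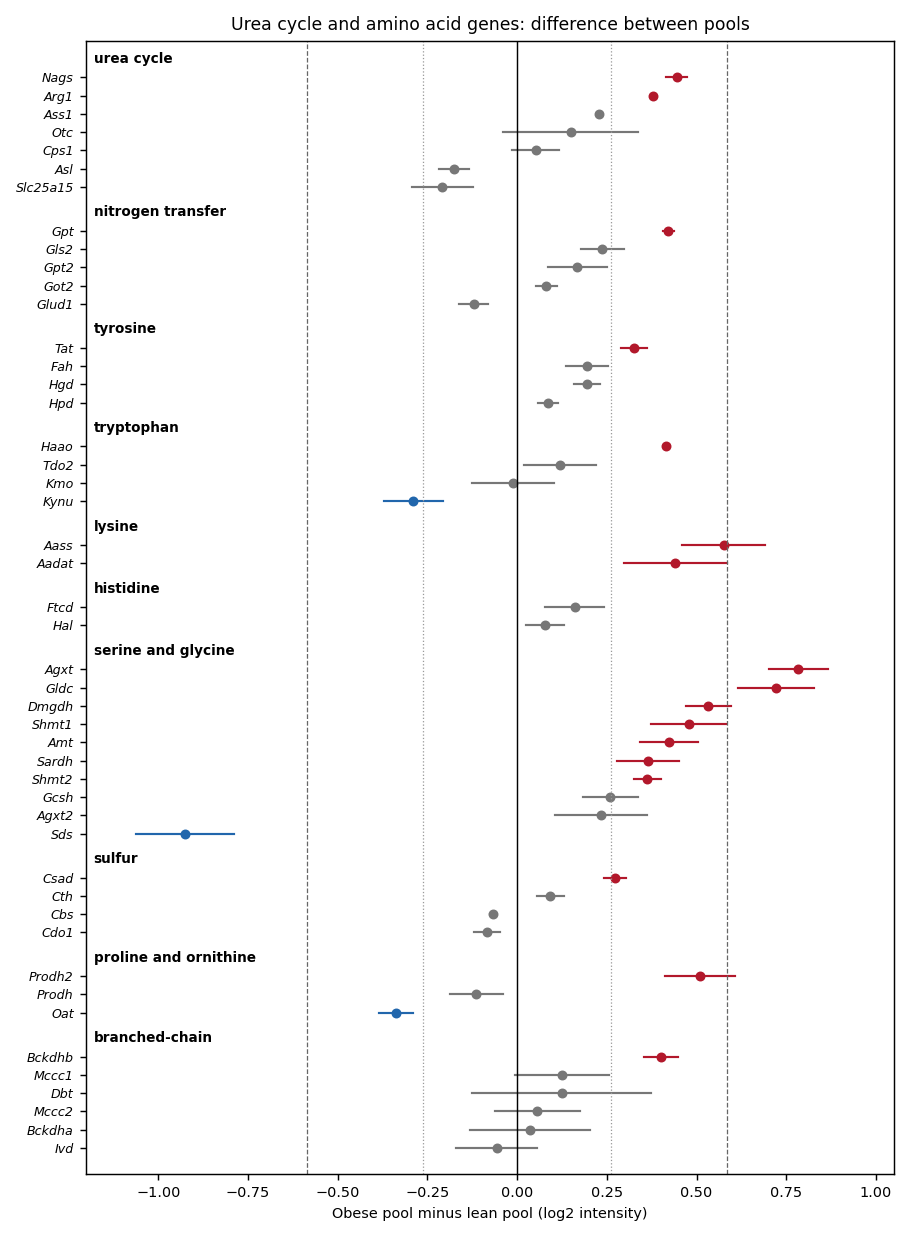
Difference between the obese and the lean pool (log2 intensity) for the 47 measured genes, grouped by pathway; points are means, bars the range over the 4 pairs of arrays, red and blue genes called higher or lower by the 1.2-fold rule, dotted lines a factor of 1.2 and dashed lines a factor of 1.5. Agxt, Gldc and Sds lie beyond the dashed lines.

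**Figure D2:**
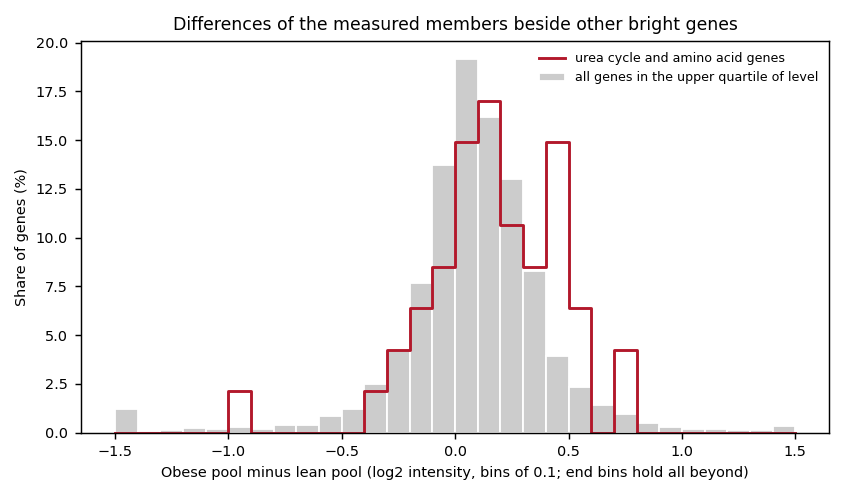
Share of genes (%) per bin of the difference between pools (log2 intensity) for the 47 members (red line) and the 3627 genes in the upper quartile of level (grey bars). The members' median is 0.17 and that of the grey genes 0.09, and 1 member, Sds, stands alone at the left.

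Serine and glycine genes held all 3 members past the 1.5-fold rule. Of the 10 genes of this route, all measured, 7 were called higher by the 1.2-fold rule and 1 lower, and their median difference was 0.39. Agxt, the aminotransferase that turns glyoxylate into glycine, read 8.49 and 8.55 on the lean arrays and 9.25 and 9.36 on the obese arrays. Its arrays stood well apart, by a fold of 1.72 (1.63 to 1.82), and 178 of the 14506 genes had a larger excess in the obese pool. Gldc encodes the decarboxylase that opens glycine in the glycine cleavage system of mitochondria. It read 8.93 and 9.02 in the lean and 9.76 and 9.64 in the obese pool, 1.65-fold higher (1.53 to 1.78).

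Sds stood lower in the obese pool. This gene encodes serine dehydratase, which turns serine into pyruvate and is known to be raised by glucagon and by protein feeding. It read 7.91 and 8.01 on the lean arrays and 7.12 and 6.94 on the obese arrays, 1.90-fold lower (1.73 to 2.09). Both obese arrays lay below both lean arrays, as the call requires, and 280 genes had a larger deficit. The member nearest the 1.5-fold rule from below was Aass at a difference of 0.575, just under the required factor, and Gldc, at 0.72, was the nearest above it.

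The region before the start of transcription is shown for the genes called 1.5-fold higher, Agxt and Gldc, and for Cps1, the first enzyme of the urea cycle, which differed little. Sequences are the 250 bases before each start as RefSeq places it in GRCr8, 5′ to 3′ on the strand of the gene. The table gives 2 starts for Agxt and none for Sds. Gldc lies on the minus strand (chr1:237375605-237375854), Agxt on the plus strand (chr9:101122543-101122792 and chr9:101127008-101127257) and so does Cps1 (chr9:76063613-76063862). Capitals mark a match to a motif that was searched.

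Gldc: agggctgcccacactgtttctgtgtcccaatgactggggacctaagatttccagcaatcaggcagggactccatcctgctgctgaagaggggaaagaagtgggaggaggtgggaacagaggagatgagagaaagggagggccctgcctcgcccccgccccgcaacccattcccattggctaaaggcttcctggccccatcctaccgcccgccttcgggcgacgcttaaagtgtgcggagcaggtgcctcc
Agxt, first start: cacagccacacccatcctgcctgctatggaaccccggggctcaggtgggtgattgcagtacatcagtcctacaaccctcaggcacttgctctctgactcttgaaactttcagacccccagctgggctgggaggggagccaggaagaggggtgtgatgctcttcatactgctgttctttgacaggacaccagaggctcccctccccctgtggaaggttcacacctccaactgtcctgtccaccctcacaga
Agxt, second start: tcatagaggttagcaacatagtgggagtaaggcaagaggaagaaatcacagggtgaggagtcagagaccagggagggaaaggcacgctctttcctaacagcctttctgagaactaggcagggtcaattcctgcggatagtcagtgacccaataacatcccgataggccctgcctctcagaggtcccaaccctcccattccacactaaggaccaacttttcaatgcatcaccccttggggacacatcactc
Cps1: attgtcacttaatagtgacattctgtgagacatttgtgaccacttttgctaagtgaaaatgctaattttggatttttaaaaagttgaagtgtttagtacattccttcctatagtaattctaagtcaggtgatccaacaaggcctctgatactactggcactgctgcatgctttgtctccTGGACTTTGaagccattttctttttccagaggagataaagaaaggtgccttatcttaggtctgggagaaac

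The windows differed in base composition. Gldc had 61.2% G and C with 9 CG pairs, Agxt 58.0% with 1 pair at its first and 51.6% with 3 pairs at its second start, and Cps1 38.0% with 0 pairs, against medians of 51.2% and 5 pairs over 33469 windows. The motifs searched on both strands were the cAMP response element TGACGTCA, a C/EBP site TTGCGCAA, an amino acid response element TGATGCAAT, an HNF4 site CAAAGTCCA, the TATA box TATAAA and the glucocorticoid response element. Of 43 listed genes with a window, 3 held the HNF4 letters in any of their windows (Cps1, Kmo and Agxt2), and 0.338% of all single windows held them. A gene can have several windows, so counts of genes and shares of windows are not in the same unit. In Cps1 the match begins at base -71 from the start and reads CAAAGTCCA on the opposite strand. The TATA letters stood in 5 genes (Ass1, Tdo2, Ftcd, Amt and Agxt2) and in 12.9% of all windows, and the other motifs matched 0 of the 43. A match describes letters only, and no match says no more than that these letters are not in this window.

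Dmgdh and Sardh, mitochondrial dehydrogenases that strip methyl groups from dimethylglycine and then from sarcosine, read 9.19 and 9.16 (Dmgdh, lean), 9.76 and 9.66 (Dmgdh, obese), 8.85 and 8.81 (Sardh, lean) and 9.26 and 9.13 (Sardh, obese). The folds were 1.45 (1.39 to 1.51) and 1.29 (1.21 to 1.37). Both were called higher by the 1.2-fold rule, which requires pools that do not overlap.

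Shmt1 and Shmt2, the cytosolic and mitochondrial enzymes that interconvert serine and glycine, shared this direction. Shmt1 read 8.76 and 8.90 in the lean and 9.27 and 9.35 in the obese pool, 1.39-fold higher (1.30 to 1.497), and Shmt2 read 9.41 and 9.46 and then 9.81 and 9.79, 1.29-fold higher (1.25 to 1.32). Counted from the hepatocyte markers, Shmt2 fell just short of the 1.2-fold rule at a difference of 0.2629 against 0.2630. Of genes that are not members, Bhmt, which makes dimethylglycine from betaine, had a difference of 0.47 and was called higher. Gnmt, which methylates glycine to sarcosine, and Pipox, which oxidises sarcosine in peroxisomes, had differences of 0.05 each and were not called.

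The rest of the glycine cleavage system leaned the same way as Gldc. Amt, its folate-dependent aminomethyltransferase, read 7.27 and 7.21 in the lean and 7.61 and 7.72 in the obese pool, 1.34-fold higher (1.27 to 1.42). Its other probe set read 4.89 and 4.91 in the lean and 5.25 and 5.21 in the obese pool, below the median level of all genes. That probe set gave a difference of 0.34 beside 0.42, and would not pass the level filter. Gcsh, the carrier protein of the system, read 9.64 and 9.79 and then 9.98 and 9.97, and its difference of 0.260 placed it nearest to the 1.2-fold threshold among members not called. Dld, the dehydrogenase that this system shares with other complexes and no member, had a difference of 0.33 and was also called higher. Agxt2, a mitochondrial aminotransferase that can also use glyoxylate, had a difference of 0.23 and was not called.

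**Figure D3:**
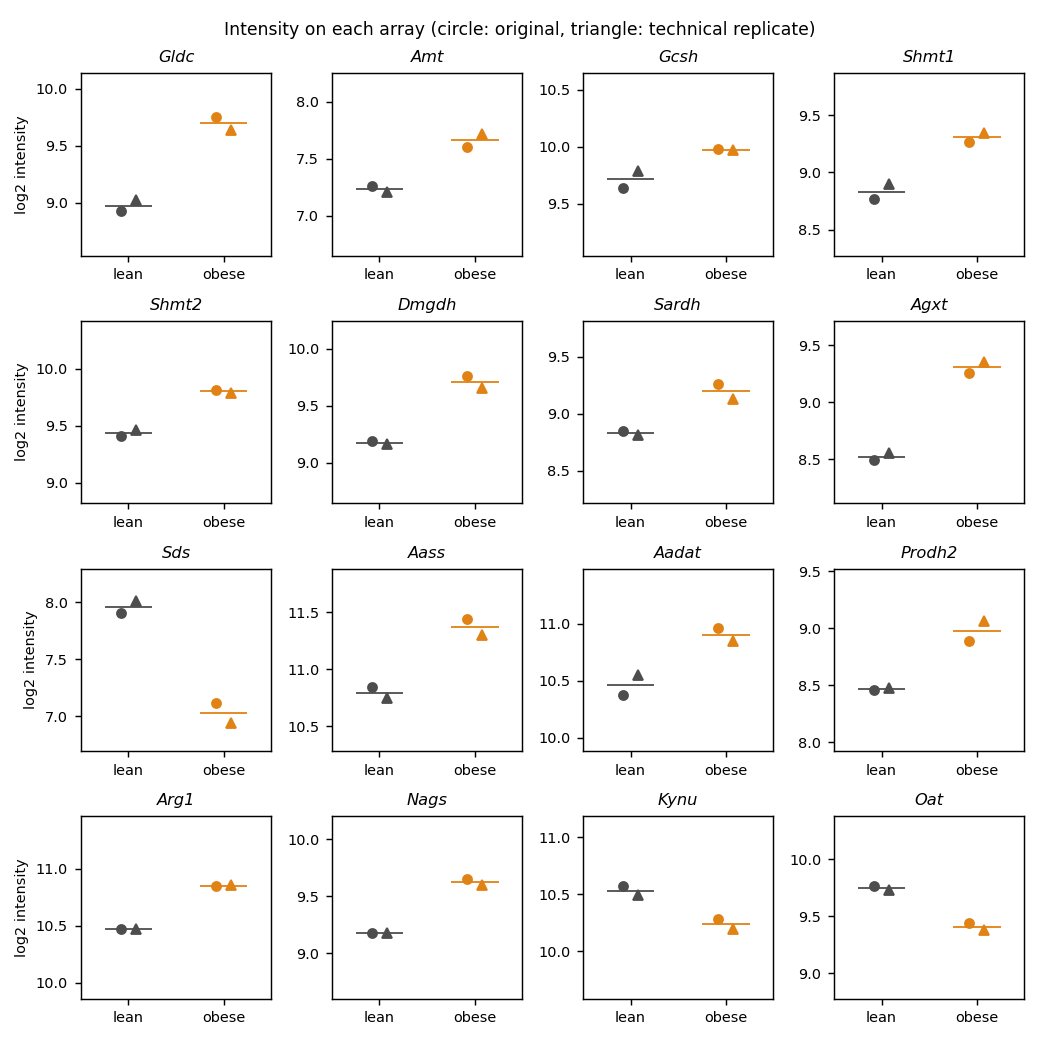
Log2 intensity of 16 genes on each array, lean in grey and obese in orange, circles for the original and triangles for the technical replicate array, bars for the pool mean; every panel spans 1.6 log2 units but has its own range. All but Gcsh were called by the 1.2-fold rule, which requires arrays of the pools that do not overlap, and Gcsh does not overlap either. Sds, Kynu and Oat are the genes that stand lower in the obese pool.

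The urea cycle itself showed small differences in both directions. Of its 7 measured genes 2 were called higher and 0 lower, and the median difference was 0.15. Nags makes N-acetylglutamate, the activator that the first enzyme of the cycle needs. It read 9.18 on both lean arrays and 9.65 and 9.60 on the obese arrays, 1.36-fold higher (1.33 to 1.39). Arg1, the arginase that releases urea, read 10.47 on both lean arrays and 10.84 and 10.85 on the obese arrays, 1.30-fold higher (1.30 to 1.30).

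The steps between lay closer together. Cps1, carbamoyl phosphate synthetase, read 12.74 and 12.76 in the lean and 12.85 and 12.75 in the obese pool, so the arrays overlapped, and its difference of 0.05 became -0.01 with cyclic loess and -0.05 when counted from the hepatocyte markers. Otc, which joins carbamoyl phosphate to ornithine, read 9.95 and 10.14 and then 10.29 and 10.10, also with overlap. Ass1, argininosuccinate synthase, stood at 12.25 on both lean arrays and at 12.48 on both obese arrays, a fold of 1.17 (1.17 to 1.17) that did not reach the rule.

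Asl and Slc25a15 had differences below 0. Asl, which splits argininosuccinate, read 10.43 and 10.45 in the lean and 10.24 and 10.29 in the obese pool, a difference of -0.18. Slc25a15, the carrier that brings ornithine into mitochondria, read 10.87 and 10.84 and then 10.72 and 10.58, a difference of -0.21. Neither overlapped and neither was called, but counted from the hepatocyte markers they stood at -0.28 and -0.31.

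Of 5 measured members that pass nitrogen between amino acids or release it, Gpt was the 1 called. This cytosolic alanine aminotransferase, the enzyme measured in blood as a sign of liver injury, read 8.94 and 8.92 in the lean and 9.34 and 9.35 in the obese pool, 1.34-fold higher (1.33 to 1.35). Its mitochondrial relative Gpt2 had a difference of 0.17, and whether the pair differ was not tested. Gls2, the liver glutaminase, had a difference of 0.24, the mitochondrial aspartate aminotransferase Got2 one of 0.08 and glutamate dehydrogenase (Glud1) one of -0.12. None of these 4 was called.

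Both members of the lysine route were called higher. Aass, the mitochondrial enzyme that joins lysine to 2-oxoglutarate and splits the product, read 10.84 and 10.75 in the lean and 11.44 and 11.30 in the obese pool, 1.49-fold higher (1.38 to 1.61). Aadat, the aminotransferase that acts further down this route and also on kynurenine, read 10.38 and 10.55 and then 10.96 and 10.85, 1.36-fold higher (1.23 to 1.499). Both were called under each of the 15 alternatives that recompute the 1.2-fold rule, some of which could not alter these calls. Gcdh, Hykk and Pipox, enzymes of lysine or hydroxylysine breakdown that are not members, had differences of -0.08, -0.05 and 0.05 and were not called.

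Of 4 tryptophan genes 1 was called higher and 1 lower. Haao, which makes the precursor of quinolinate, read 9.33 and 9.34 in the lean and 9.75 on both obese arrays, 1.33-fold higher (1.33 to 1.34). Kynu, the kynureninase just before it, read 10.57 and 10.49 and then 10.28 and 10.20, 1.22-fold lower (1.15 to 1.29), a call lost in 3 of the 15 alternatives, including the omission of the lean original array (-0.250) and of the obese technical replicate (-0.247). The 2 genes thus stood apart in opposite directions, with no overlap at either, as the 1.2-fold rule requires of a called gene. Tdo2, the dioxygenase that opens the route, had a difference of 0.12 and the monooxygenase Kmo one of -0.01, and neither was called.

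In tyrosine breakdown all 4 measured genes had differences above 0. Tat, the aminotransferase that takes the first step and a classic target of glucocorticoids, read 11.38 and 11.40 in the lean and 11.75 and 11.69 in the obese pool, 1.25-fold higher (1.22 to 1.28). It was the 1 gene of the route to be called, and the call was lost with cyclic loess and with both scalings added later. The following enzymes Hpd, Hgd and Fah had differences of 0.09, 0.19 and 0.19. Of the histidine route, Hal, the ammonia lyase of its first step, had a difference of 0.08 and Ftcd, which passes the formimino group to folate, one of 0.16.

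Proline and ornithine enzymes split. Prodh2, which oxidises hydroxyproline, read 8.46 and 8.48 in the lean and 8.89 and 9.07 in the obese pool, 1.42-fold higher (1.33 to 1.52). Prodh, the proline dehydrogenase related to it, had a difference of -0.11. Oat, the ornithine aminotransferase, read 9.76 and 9.73 and then 9.44 and 9.38, 1.26-fold lower (1.22 to 1.31), and was called lower.

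Sulfur amino acid genes had a median difference of 0.01, with 1 of 4 called higher and 0 lower. Cbs and Cth, which carry the sulfur of homocysteine to cysteine, had differences of -0.07 and 0.09, and Cdo1, which oxidises cysteine, one of -0.08. Csad, the decarboxylase on the way to taurine, read 10.24 and 10.29 in the lean and 10.55 and 10.53 in the obese pool, 1.21-fold higher (1.18 to 1.23). At 0.273 it was the called member nearest the 1.2-fold threshold, and 6 of the 15 alternatives lost the call.

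Branched-chain genes overlapped between the pools at 5 of 6 members. The exception was Bckdhb, a subunit of the dehydrogenase complex that commits the branched-chain keto acids to oxidation, which read 8.83 and 8.86 in the lean and 9.28 and 9.21 in the obese pool, 1.32-fold higher (1.28 to 1.36). Its partner subunits Bckdha and Dbt had differences of 0.04 and 0.12, with pair ranges of -0.13 to 0.20 and -0.12 to 0.37. Ivd, Mccc1 and Mccc2, which act on leucine after the complex, lay between -0.06 and 0.13. A list of members that skeletal muscle also expresses, set from general knowledge and not complete, held 9 measured genes. They were these 6 and Got2, Gpt2 and Glud1. Those 9 had a median difference of 0.08 with 1 called higher. The 38 members not on the list had one of 0.23 with 16 called higher and 3 lower, and their expression in muscle was not checked. Of all genes 10.6% were called higher and 5.48% lower, and of the upper quartile of level 22.6% and 8.55%. What part muscle RNA had in this split was not tested.

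Other amino acid genes, 91 measured in 6 lists, had a median difference of 0.08. The 1.2-fold rule called 23 higher and 8 lower, against 10.6% and 5.48% of all genes. Shares of the upper quartile of level were 22.6% and 8.55%. The 1.5-fold rule called 5 and 6, against 2.19% and 2.43% of all genes. The level filter left out 10 of the 91. Among enzymes of methionine and sulfur, 6 of 13 were called higher and 0 lower, led by Ethe1, the mitochondrial persulfide dioxygenase, at 1.76-fold (1.65 to 1.89). Kyat1, a kynurenine aminotransferase, was 1.57-fold higher (1.49 to 1.65), Odc1, which makes polyamines from ornithine, 1.62-fold (1.45 to 1.80) and Psat1, of serine synthesis, 1.55-fold (1.38 to 1.75). Got1, the cytosolic aspartate aminotransferase, was 1.91-fold lower (1.85 to 1.97).

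Of 14 measured amino acid carriers 0 were called higher and 4 lower, with a median of -0.14, where 10.6% and 5.48% of all genes were called. The level filter left out 3 of the 14. Slc1a2, a glutamate transporter of hepatocytes around the central vein, read 8.59 and 8.75 in the lean and 7.84 and 7.73 in the obese pool, 1.85-fold lower (1.68 to 2.03). Slc43a1, a carrier of large neutral amino acids, was 1.67-fold lower (1.51 to 1.85) and the taurine transporter Slc6a6, which skeletal muscle also expresses, 1.63-fold (1.40 to 1.89). Whether skeletal muscle expresses Slc43a1 and the other carriers was not checked here.

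Regulators of these pathways had a median difference of 0.10 over 18 genes. Of them 4 were called higher and 1 lower, where 10.6% and 5.48% of all genes were called. Atf5, a transcription factor of the amino acid stress response, was 1.59-fold higher (1.49 to 1.71). Its relative Atf4 had a difference of 0.13, the liver factor Hnf4a one of 0.11 and Klf15, known for control of amino acid breakdown, one of 0.04, 3 genes named after their values had been seen. Ppargc1a, a coactivator, and Bcat2, the branched-chain aminotransferase found mainly outside liver, were 2.60-fold and 1.54-fold lower. For these 2 genes the obese level lay below the median of all genes, so the folds have no firm size. Skeletal muscle also expresses Got1, Bcat2 and Ppargc1a.

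**Figure D4:**
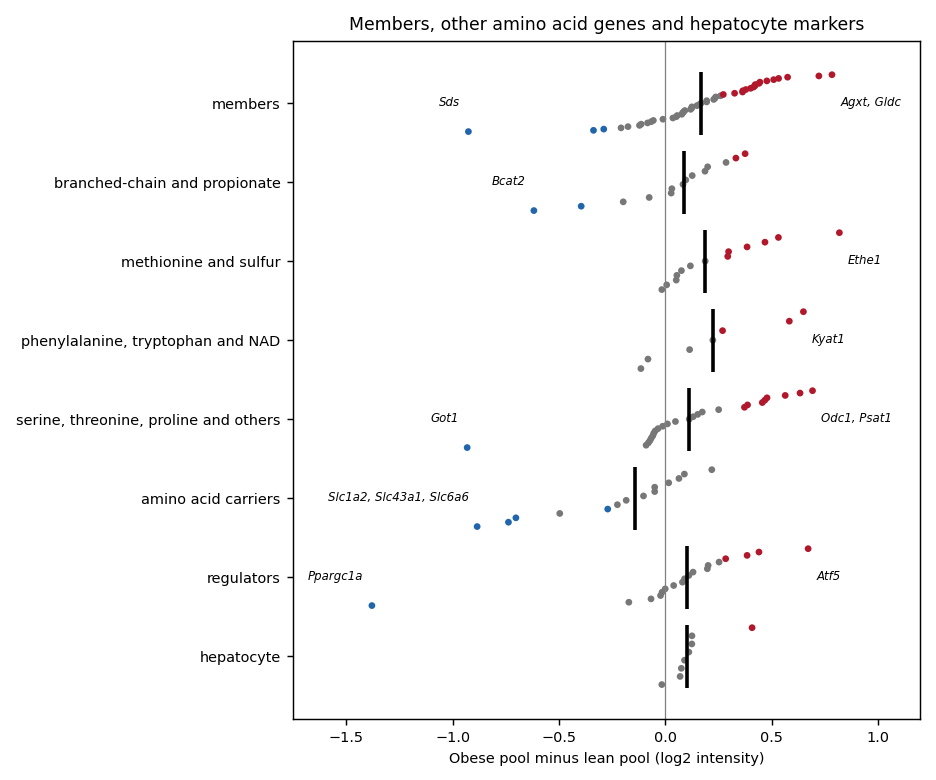
Difference between the obese and the lean pool (log2 intensity) for the 47 members, 6 lists of other amino acid genes and 8 hepatocyte markers; each point is a gene, red and blue mark genes called higher or lower by the 1.2-fold rule, black bars are medians, and genes past the 1.5-fold rule are named. The carriers have a median of -0.14, and the members one of 0.17.

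Many of these enzymes are known to sit at one end of the liver lobule, ureagenesis and serine breakdown near the portal vein and ornithine aminotransferase around the central vein. The 12 markers of the portal side, 7 of them members, had a median difference of 0.12, with 3 called higher and 1 lower. The 10 measured markers around the central vein, with Oat the only member among them, had a median of -0.11, with 1 higher and 4 lower. The 1 called higher was Cyp7a1, which makes bile acids, and the level filter left out 1 other, Lgr5. Of all genes 10.6% were called higher and 5.48% lower, and of the upper quartile of level 22.6% and 8.55%. Without members the medians were 0.16 over 5 genes and -0.08 over 9. Grouped by compartment, after the values had been seen, the 27 measured mitochondrial members had a median of 0.17 and the 19 cytosolic members one of 0.16.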

How the data were processed

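The data were 4 arrays of liver RNA, 2 of a lean and 2 of an obese pool, grouped by the phenotype in the labels. The authors deposited an RMA intensity for each probe set on each array, per the submitters' processing notes, and the values read as linear, not log2; the step to a linear scale, software version and build are not given in the sources used here. Intensities ran from 2.31 to 14288. Their log2 was taken here with no further normalisation. Each of 15310 of 29214 probe sets carried 1 gene symbol; the brightest probe set stood for a gene, and only Amt, of the members, had 2. RMA can shrink differences at the ends of the scale, and with 2 arrays a pool the number of arrays limits the precision. No detection calls were used. Promoter windows came from RefSeq (GRCr8) by symbol; the authors' build being unknown, no probe was placed on it.

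Members, lists, pathway chains, rules and alternatives were chosen with earlier results of these data known; members past the 1.2-fold rule and urea cycle genes were named with all arrays, other lists by their genes past the 1.5-fold rule; Bhmt, Gnmt, Pipox, Gcdh, Hykk, Dld and some regulators were added after their values were seen. The rules were tried on simulated data with known changes and independent noise. That simulation had no offset between arrays and no variation between pools, so it does not show how the rules act on these pools. Tools were Python 3.11.15, pandas 2.3.3 and limma 3.58.1 (loess and quantile alternatives). Alternatives changed the arrays used, normalisation, offset, probe set rule, level filter, gap and fold.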

Additional observations from a re-analysis of the deposited data

How the results depend on the processing

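All 17 members called higher and all 3 called lower by the 1.2-fold rule kept their sign under each of 15 alternatives, and 14 and 2 of them kept the call throughout. The exceptions were Tat, Shmt2, Csad and Kynu. Some alternatives could hardly lose a call. Every member lay in the upper quartile of level, so neither change of the level filter could matter. The mean of a gene's probe sets could alter only Amt among the members, and dropping the gap could only add 1.5-fold calls. Agxt, Gldc and Sds kept the 1.5-fold call under all 17 alternatives except a factor of 2 with a gap of 0.5, which left 0 members higher and 0 lower. The count of members called lower became 5 when differences were counted from the hepatocyte markers and 5 when arrays were centred on the upper quartile of level. The shares called lower were then 14.1% and 13.5% of the upper quartile, and 8.57% and 8.28% of all genes. Both settings were added after the data had been seen. The median difference of 0.17 moved with scaling: it was 0.0813 with cyclic loess, 0.12 with quantile normalisation, 0.21 with each array centred on its median over all genes, 0.0733 when centred on the upper quartile of level and 0.0678 from the hepatocyte markers. It was 0.24 (0.235) on the original arrays alone and ranged from 0.14 to 0.23 over the fits that drop 1 array, without the obese original array (0.137) or without the obese technical replicate array (0.230). The members' median exceeded that of the upper quartile of level by 0.06 to 0.12 where the arrays used or the normalisation changed. Centring the arrays or counting from the hepatocyte markers moves all genes alike. Those settings therefore could not change this excess, which stayed at 0.08. Signal over background was not analysed here, and no alternative supplies a second pool of either phenotype.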
